A study of Mus musculus with 4 samples.

Results

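Voltage-gated sodium and calcium channels are membrane proteins that open when the membrane depolarises. This account describes their genes in mouse brain libraries labelled as endothelial cells of the brain vasculature. Members were chosen by gene name from the deposited expression table: names of the form Scn, a number and a or b (sodium channel pore-forming and beta subunits), and names starting with Cacna, Cacnb or Cacng and a number (calcium channel pore-forming, alpha2delta, beta and gamma subunits). The rule took 42 rows of 46072, which carry 39 distinct names, and 37 of these are described. Of the 37, 33 were above 0 in at least 1 library and 4 were listed at 0 in every library. The mouse gene for the brain sodium channel Nav1.2 stands in the table as Scn2a1, which the naming rule does not take, so it is shown beside the members and counted with none of them.

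In the study, vessels marked by antibody were cut by laser from brain tissue fixed by perfusion, and their RNA was sequenced. It holds 4 poly(A) libraries, replicates 1 to 4 of 1 group: wild-type (WT) mice with no treatment, source labelled brain vascular. Strain, age and sex of the animals are not given in the labels used here, and nothing there says whether the 4 samples came from separate animals, so each p-value reflects how far these samples differ from one another, a spread that may be technical. Laser capture cuts out tissue around a marked vessel, and the labels do not give the width of the cut or the number of cells. Levels are FPKM, fragment counts corrected for transcript length and library total. Libraries still differed by transcript length, as given below, so comparisons of long with short genes carry that limit. Differences are on the log2(FPKM + 1) scale, which understates differences of low genes.

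A pore-forming sodium channel subunit holds the whole ion path in 1 chain, and the small beta subunits, which have a single membrane span, tune its gating and act as adhesion molecules. Calcium channels have a pore-forming alpha1 subunit, and those of the L, P/Q, N and R types are assembled with a cytoplasmic beta subunit and an extracellular alpha2delta subunit. Most Cacng proteins of the brain are AMPA glutamate receptor partners rather than channel parts. These genes are known for their roles in neurons and muscle; L-type channels drive the contraction of vascular smooth muscle.

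Marker genes of several brain cell types were abundant in these libraries. All 17 pan-endothelial marker genes were above 0, their median was 5.75 ± 0.645 FPKM (SD, n = 4), and their summed level ranged from 254.5 to 327.9 FPKM. Of the 17, 14 passed above 1 FPKM and 1 below it. The highest was Ly6c1 at 68.2 ± 4.29 FPKM, the tight junction gene Cldn5 had 19.0 ± 0.698 FPKM, and the lowest were Cdh5 and Erg, which define endothelial cells, at 0.878 ± 0.367 and 0.368 ± 0.123 FPKM. The median of 13 pan-neuronal markers was 105 ± 6.89 FPKM with sums of 2726 to 3330 FPKM, that of 8 astrocyte markers 69.7 ± 4.98 FPKM with sums of 809.1 to 1003 FPKM, and that of 8 oligodendrocyte markers 142 ± 18.2 FPKM with sums of 4868 to 6132 FPKM. The median of 6 choroid plexus markers was 71.2 ± 7.46 FPKM with sums of 11694 to 17188 FPKM, that of 8 microglia markers 29.6 ± 4.02 FPKM and that of 7 pericyte markers 3.80 ± 0.529 FPKM. The median of 6 smooth muscle markers was 14.3 ± 1.99 FPKM and that of 10 striated muscle markers 0.312 ± 0.0506 FPKM. No marker gene of these lists was at 0 in all 4 libraries. The part of these cell types in the levels given here was not tested, and in such tissue fewer cells of a type and less RNA per cell cannot be told apart. The FPKM values of a library summed to between 448678 and 482882.

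Auxiliary subunits, the gamma family counted among them, made up most of the summed FPKM of the 37 genes. The 37 genes summed to 166 ± 13.6 FPKM (SD, n = 4), or 0.0357% ± 0.00325 of all FPKM. Calcium channel beta subunits held 35.6% ± 2.71 of that sum, the gamma family 18.4% ± 1.79 and the 3 sodium channel beta genes described 15.6% ± 1.01. The 8 pore-forming sodium channel genes held 13.0% ± 1.55, alpha2delta subunits 11.4% ± 0.910 and the 10 pore-forming calcium channel genes 5.99% ± 1.64. Scn2a1, at 12.2 ± 4.81 FPKM, is in none of these sums and would raise the share of the pore-forming sodium channel genes. Calcium channel beta subunits held the largest and pore-forming calcium channel genes the smallest share in each of the 4 libraries.

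Each gene was set against 2 levels, with limma's moderated 2-sided test over the 25206 genes above 0 and Benjamini-Hochberg adjustment at 0.05. Against 1 FPKM, 19 of the 37 genes passed above and 10 below, 4 passed in neither direction and 4 were listed at 0 and not tested. Of all genes tested, 47.7% passed above and 40.1% below 1 FPKM. The median difference was 0.72 over the 33 tested members and 0.27 over all genes. In an alternative, every library was rescaled to a sum of 1000000, while the deposited sums were 448678 to 482882. Every value rose, so the cut of 1 on that scale is a lower level than 1 FPKM. The median of all genes moved to 0.99, with 13693 of the 25206 genes above and 7474 below. The split of the members became 22 above and 4 below. Replicate 2 was low in genes with long transcripts, and without it 18 members were above and 7 below 1 FPKM. Against the pan-endothelial median of the same library, 10 members passed above, 20 below and 3 in neither direction, beside 27.2% and 65.0% of all genes. In this second comparison limma gave every gene the spread common to genes of its level, so each call is given with the gene's own SD over libraries. With each gene's own spread in the test instead, 7 of the 10 members above and all 20 below were called again.

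**Figure D1:**
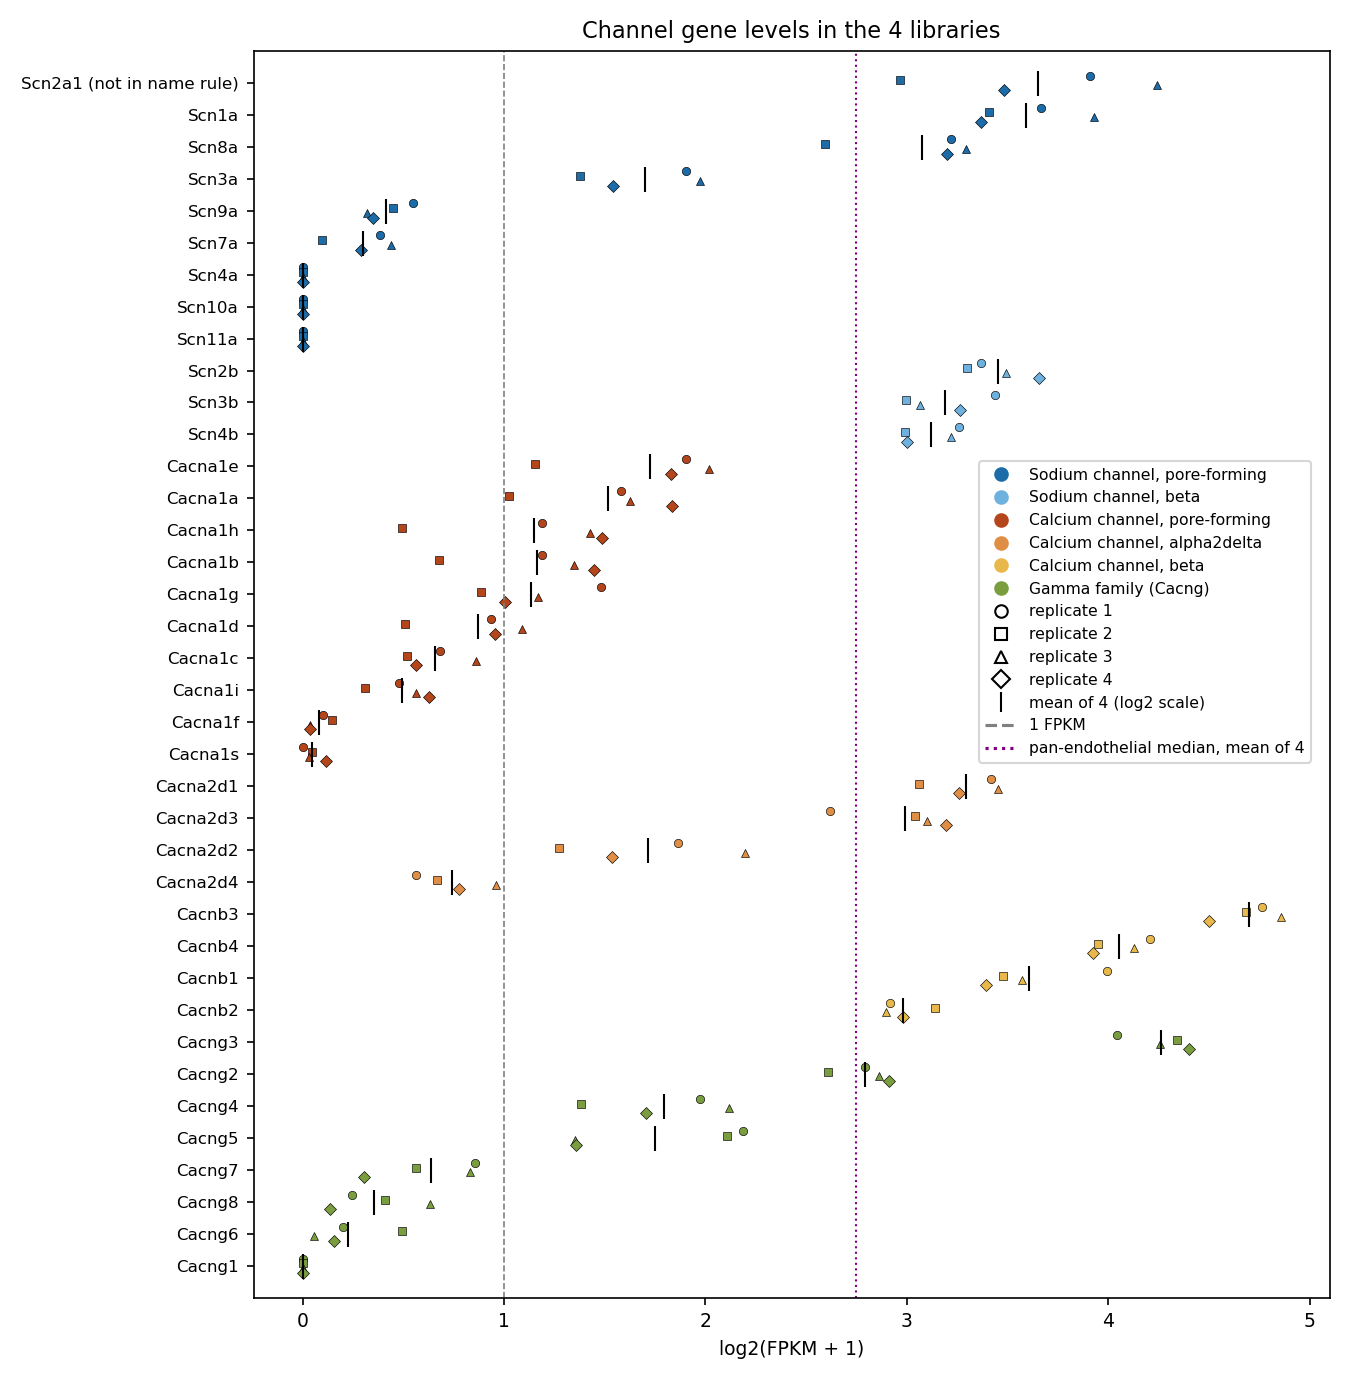
Level of each channel gene in the 4 libraries, on a log2(FPKM + 1) axis, grouped by subunit class and ordered by mean within it; symbols are replicates, short black bars the mean of 4 on the log2 scale, the dashed line 1 FPKM and the dotted line the mean pan-endothelial median. Cacnb3 lies farthest to the right, the pore-forming calcium channel genes all lie left of the dotted line, and the square of replicate 2 is the leftmost symbol of 11 of the 15 pore-forming members above 0.

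Among pore-forming sodium channel genes, 3 of the 5 tested were above 1 FPKM and 2 below, beside 47.7% and 40.1% of all genes tested. The rest of the 8 described were listed at 0 and not tested. Scn1a encodes Nav1.1, the main sodium channel of fast-spiking inhibitory neurons, and its level was 11.7, 9.63, 14.2 and 9.33 FPKM in replicates 1 to 4 (11.2 ± 2.27, SD, n = 4). Scn8a encodes Nav1.6, the channel of the axon initial segment and the nodes of Ranvier, and measured 8.32, 5.04, 8.81 and 8.18 FPKM (7.59 ± 1.72). Scn3a, the channel best known from the embryonic brain, measured 2.74, 1.60, 2.92 and 1.91 FPKM (2.29 ± 0.638). In each library the order was Scn1a over Scn8a over Scn3a, and Scn3a did not overlap with either. Scn2a1 stood at 14.0, 6.80, 17.9 and 10.2 FPKM (12.2 ± 4.81), the widest absolute spread among the sodium channel pore genes.

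Scn1a exceeded Scn8a in 4 of 4 libraries, by 0.52 ± 0.28 on the log2 scale (adjusted p = 0.01991 in limma), a ratio of 1.52 ± 0.326. Of all genes, 22.2% passed above Scn8a and 67.8% below. The call was lost without replicate 1 (0.54, adjusted p = 0.0874) or replicate 3 (0.48, adjusted p = 0.1151) and held without replicate 2 or 4. Scn2a1 was above Scn8a by 0.57 ± 0.31 (adjusted p = 0.009798) and did not differ from Scn1a beyond the spread of the libraries, with a difference of 0.06 ± 0.34 (adjusted p = 0.7638). Scn3a was below Scn8a by a log2 difference of -1.38 ± 0.19, and the ratio of Scn1a to Scn3a was 5.01 ± 0.735. Scn1a was higher than the pan-endothelial median by 0.84 ± 0.28 in 4 of 4 libraries and Scn3a lower (-1.05 ± 0.34). Scn8a stood 0.33 ± 0.35 above it, in 3 of 4 libraries, and that call was lost with its own spread (adjusted p = 0.1684) and without replicate 1, 3 or 4 (0.21, 0.30 and 0.31, adjusted p = 0.1895, 0.1011 and 0.1188). Scn2a1 stood 0.90 ± 0.56 above it and missed the threshold with its own spread (adjusted p = 0.05608).

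The other 5 pore-forming sodium channel genes described are those of peripheral neurons, glia and skeletal muscle. Scn9a, the nociceptor channel Nav1.7, had 0.336 ± 0.0966 FPKM, and Scn7a, a sodium-sensing channel of glia, 0.238 ± 0.126 FPKM. Both passed below 1 FPKM, but the call of Scn9a was lost with libraries rescaled (-0.22, adjusted p = 0.1238) and after the length adjustment (-0.020, adjusted p = 0.854). The skeletal muscle channel gene Scn4a and the sensory neuron channel genes Scn10a and Scn11a were listed at 0 in all 4 libraries. With no read depth given, a listed 0 sets no upper limit on the level.

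Pore-forming sodium channel genes share long runs of coding sequence, which bears on how reads could be divided between them. In GENCODE M21 (GRCm38), 7 of 36 pairs of the genes described, Scn2a1 included, shared an identical coding stretch of at least 50 bases, 2 of 45 pairs of pore-forming calcium channel genes did, and none of the 43 pairs within the other classes did. The longest, of 188 bases, was shared by Scn1a and Scn2a1, and the next, of 184 bases, by Scn3a and Scn9a. The longest of the calcium channels, of 68 bases, lies in exon 11 of Cacna1g, at chr11:94443187-94443254 on the minus strand, and in exon 12 of Cacna1i, at chr15:80369688-80369755 on the plus strand, both T-type channel genes. It is printed 5′ to 3′ in the sense of the genes, since a fragment inside it matches both.
Cacna1g and Cacna1i: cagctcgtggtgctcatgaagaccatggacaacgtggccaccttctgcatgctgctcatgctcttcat
How the counting treated fragments that match 2 genes is not given in the sources used here, so levels of these pairs are uncertain to that extent. Identical windows of 50 bases were 4.99% of the coding windows of Scn1a against Scn2a1 and 7.01% of those of Scn3a against Scn9a. Scn2a1 and Scn3a, neighbours on chromosome 2, had the highest share, 8.34% of the windows of Scn3a. Most windows of each coding sequence were thus not found in the other gene of its pair. Scn8a, on chromosome 15, shared at most 55 bases with any other of these genes.

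**Figure D2:**
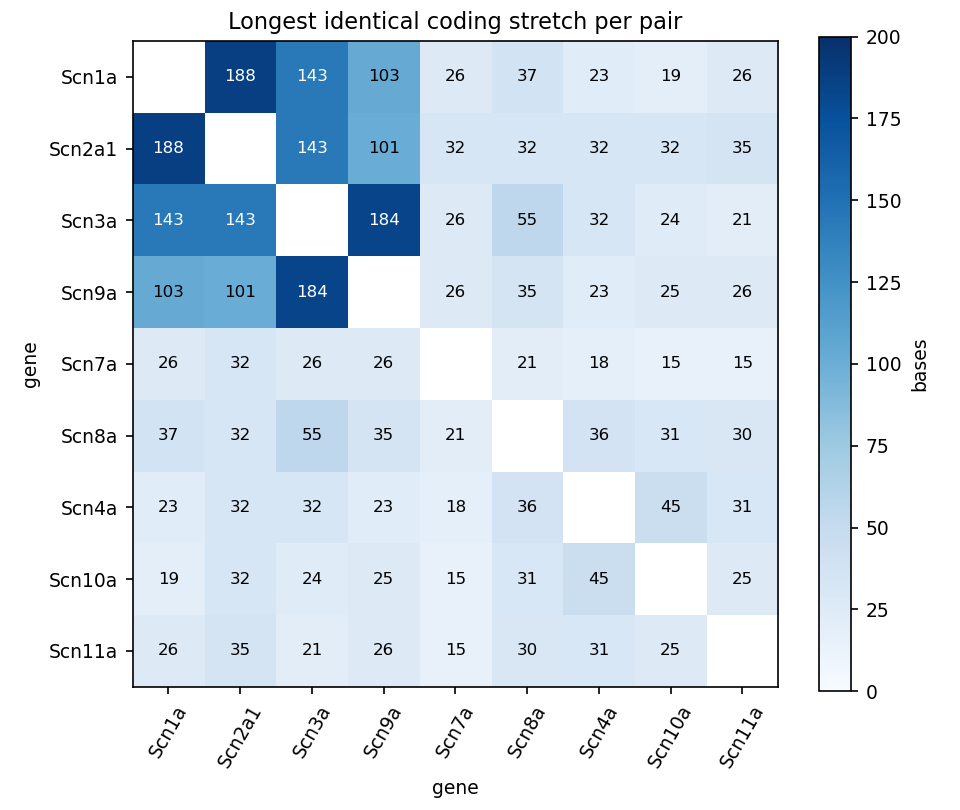
Longest identical stretch of coding sequence, in bases, between each pair of 9 pore-forming sodium channel genes (both axes, Scn2a1 included); darker cells are longer. The 4 genes Scn1a, Scn2a1, Scn3a and Scn9a share 101 to 188 bases with one another, and Scn8a shares at most 55.

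Scn3a, Scn2a1, Scn1a, Scn9a and Scn7a lie in 1 cluster on chromosome 2, from 65457118 to 66784914, and ranged from 0.238 ± 0.126 (Scn7a) to 12.2 ± 4.81 FPKM (Scn2a1). Scn9a is overlapped on the opposite strand by Gm13629, which stood at 8.30 ± 1.41 FPKM, 26.9 ± 10.4 times the level of Scn9a. Overlap here is of whole gene spans, and whether exons overlap was not examined. Whether the counting used the strand is not stated either, so the part of Gm13629 in the level of Scn9a is unknown.

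All 3 sodium channel beta genes described were above 1 FPKM, as were 47.7% of all genes tested. Scn2b, whose protein is linked to the pore by a disulfide bond, measured 9.33, 8.82, 10.2 and 11.6 FPKM (9.996 ± 1.21, SD, n = 4). Scn3b, whose protein binds the pore without such a bond, measured 9.82, 6.99, 7.37 and 8.61 FPKM (8.20 ± 1.28). Scn4b, known for its part in resurgent sodium current, measured 8.56, 6.96, 8.31 and 7.02 FPKM (7.71 ± 0.845). Scn3b overlapped with both others, while every library of Scn2b lay above every library of Scn4b. Replicate 2 was the lowest library for each of the 3 genes.

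Scn2b stood at 0.919 ± 0.230 times the level of Scn1a in FPKM and at 1.31 ± 0.240 times that of Scn4b. It was higher than the pan-endothelial median by 0.70 ± 0.15 on the log2 scale in 4 of 4 libraries. Scn3b and Scn4b were higher by 0.44 ± 0.32 and 0.37 ± 0.23 in 4 of 4 libraries, but these 2 calls were lost with each gene's own spread (adjusted p = 0.07602 and 0.05809) and without replicate 1 (0.29, adjusted p = 0.05359, and 0.26, adjusted p = 0.0877). They were also lost with the mean of the list in place of its median (0.047, adjusted p = 0.711, and -0.025, adjusted p = 0.8364) and after the length adjustment (0.30, adjusted p = 0.1724, and 0.41, adjusted p = 0.05776).

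Of the pore-forming calcium channel genes, 2 of 10 were above 1 FPKM, 4 were below and 4 passed in neither direction, beside 47.7% of all genes above and 40.1% below. The class counts depend on where the cut lies. With libraries rescaled to a sum of 1000000, which raises every value, 5 were above and 2 below, Cacna1b, Cacna1g and Cacna1h joining those above. Of all 25206 genes, 13693 were then above and 7474 below. After an adjustment for transcript length 7 were above and 2 below, with Cacna1c and Cacna1d above as well. Adjusted values are no longer FPKM, and the median difference of all genes was 0.88 in that fit. Of the 24969 genes with a length, 15892 were then above and 6325 below. Cacna1e, the R-type channel gene, measured 2.74, 1.22, 3.05 and 2.55 FPKM (2.39 ± 0.805, SD, n = 4). Cacna1a, whose P/Q-type channel triggers transmitter release, measured 1.99, 1.03, 2.08 and 2.56 FPKM (1.92 ± 0.640). Both were above 1 FPKM in every library, with replicate 2 the lowest by a wide margin. The call of Cacna1a (0.52 ± 0.35, adjusted p = 0.03358) was lost with its own spread (adjusted p = 0.06792) and without replicate 1, 3 or 4 (0.49, 0.48 and 0.41, adjusted p = 0.09601, 0.09635 and 0.1181).

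The 4 genes that passed in neither direction were close to 1 FPKM. The T-type channel gene Cacna1h measured 1.28, 0.410, 1.69 and 1.80 FPKM (1.29 ± 0.632). The N-type gene Cacna1b measured 1.28, 0.602, 1.55 and 1.72 FPKM (1.29 ± 0.493). Both lay above 1 FPKM in 3 libraries and below it in replicate 2. The T-type gene Cacna1g measured 1.79, 0.849, 1.25 and 1.01 FPKM (1.23 ± 0.411), again below 1 FPKM in replicate 2 alone. The L-type gene Cacna1d measured 0.910, 0.422, 1.13 and 0.937 FPKM (0.849 ± 0.301) and exceeded 1 FPKM in replicate 3 alone. Cacna1e, Cacna1b, Cacna1h and Cacna1g did not pass a difference from Cacna1a, with log2 differences of 0.21 ± 0.18, -0.35 ± 0.06, -0.37 ± 0.14 and -0.38 ± 0.34. With each gene's own spread in the test, Cacna1b and Cacna1h passed below it (adjusted p = 0.005897 and 0.01901). Cacna1d passed below Cacna1a by -0.64 ± 0.17. Of all genes, 40.4% passed above Cacna1a and 47.1% below.

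Cacna1c, the L-type channel of vascular smooth muscle and of neurons, had 0.603, 0.433, 0.817 and 0.478 FPKM (0.583 ± 0.172). It was below 1 FPKM in 4 of 4 libraries by a log2 difference of -0.34 ± 0.15 (adjusted p = 0.01279), a call lost without replicate 2 or 4 (-0.30 and -0.31, adjusted p = 0.05324 and 0.05795) or with a pseudocount of 0.1 (adjusted p = 0.0551). With libraries rescaled its difference was 0.16 (adjusted p = 0.3539). After the length adjustment it passed above (0.38, adjusted p = 0.004209), though adjusted values are no longer FPKM. The gene span of Cacna1c is overlapped on the opposite strand by Dcp1b, at 2.18 ± 0.332 FPKM or 4.05 ± 1.48 times its level. That of Cacna1d is overlapped by Dcp1a, at 1.62 ± 0.601 FPKM or 1.89 ± 0.139 times its level. Whether exons overlap was not examined, so the part of these genes in both levels is unknown. The smooth muscle markers of these libraries are given above, and their part in the level of Cacna1c was not tested. The third T-type gene, Cacna1i, had 0.413 ± 0.131 FPKM and was below 1 FPKM, but not with libraries rescaled (-0.098, adjusted p = 0.4975) nor after the length adjustment (0.055, adjusted p = 0.5467). Cacna1f, the L-type channel of photoreceptors, had 0.0580 ± 0.0396 FPKM. Cacna1s, the L-type channel of skeletal muscle, was listed at 0 in replicate 1 and had 0.0334, 0.0219 and 0.0849 FPKM in the others. Cacna1a was 3.40 ± 1.36 times the level of Cacna1c. All 10 genes of this class were below the pan-endothelial median in 4 of 4 libraries, and 65.0% of all genes passed below it. The 10 differences ran from -1.02 ± 0.41 for Cacna1e to -2.70 ± 0.12 for Cacna1s, as the plot of differences from that median shows.

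**Figure D3:**
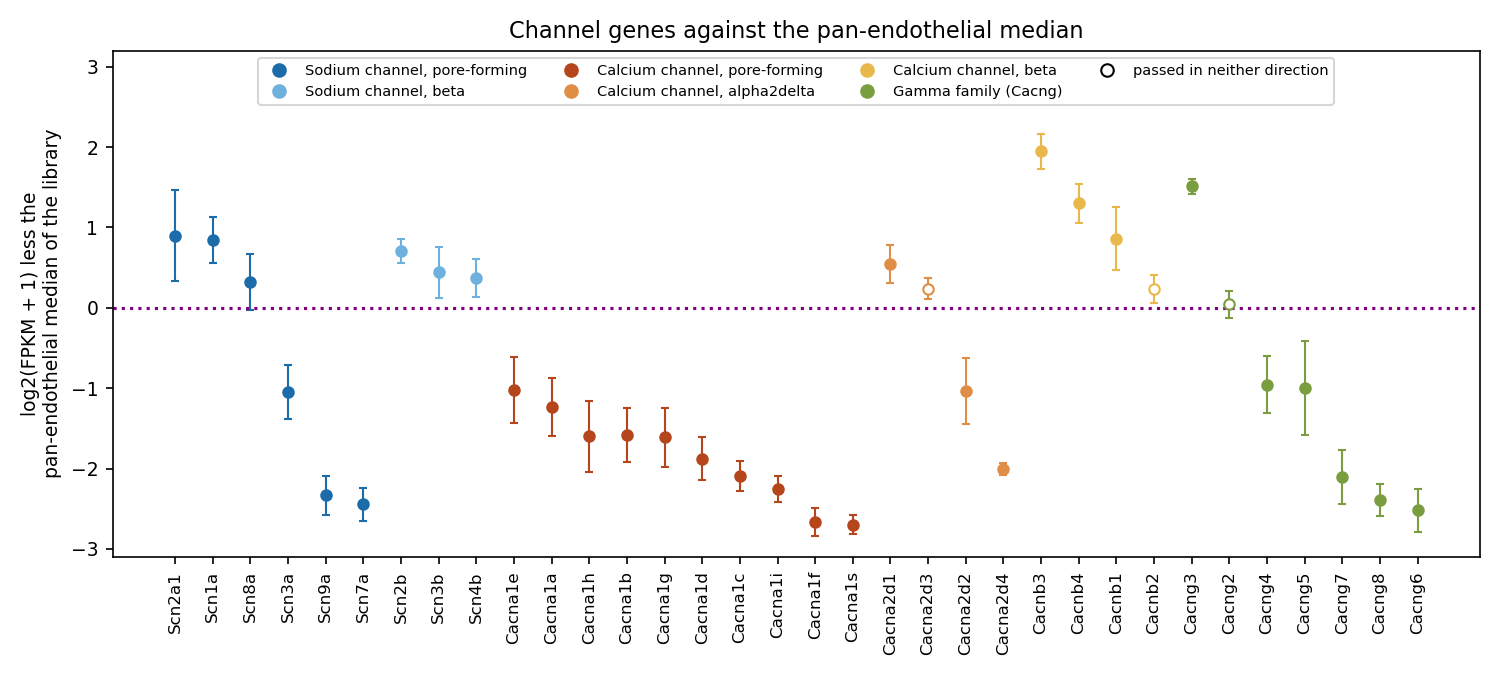
Difference of each channel gene from the median of 17 pan-endothelial marker genes in the same library, on the log2(FPKM + 1) scale (vertical axis); points are means of 4 libraries, bars 1 SD, open points genes that passed in neither direction. Cacnb3 is highest at 1.95 and the 10 pore-forming calcium channel genes all lie at -1.02 or lower.

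The alpha2delta subunits, which carry channels to the surface and bind gabapentin in the case of Cacna2d1 and Cacna2d2, split into a higher and a lower pair. Cacna2d1 measured 9.68, 7.33, 9.93 and 8.56 FPKM (8.88 ± 1.19, SD, n = 4). Cacna2d3 measured 5.14, 7.23, 7.58 and 8.16 FPKM (7.03 ± 1.31). Their ranges overlapped across libraries, although Cacna2d1 was the higher within each library. Cacna2d2, known from the cerebellum, measured 2.63, 1.42, 3.58 and 1.90 FPKM (2.38 ± 0.940). Cacna2d4, known from the retina, measured 0.477, 0.588, 0.945 and 0.713 FPKM (0.681 ± 0.201), under 1 FPKM in every library.

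Cacna2d3 passed below Cacna2d1 by -0.31 ± 0.36 (adjusted p = 0.04848 in limma). That call was lost with its own spread (adjusted p = 0.1956) and without replicate 1, 3 or 4 (-0.14, -0.29 and -0.39, adjusted p = 0.4546, 0.1171 and 0.05337). It held without replicate 2, so the call depends on the setting. Cacna2d2 and Cacna2d4 were below Cacna2d1 by -1.58 ± 0.24 and -2.55 ± 0.21. Of all genes, 72.0% passed below Cacna2d1 and 21.4% above. Cacna2d2 passed above 1 FPKM (0.72 ± 0.40, adjusted p = 0.01438), a call lost without replicate 1 (0.67, adjusted p = 0.0528). The call of Cacna2d4 below 1 FPKM (-0.26 ± 0.17, adjusted p = 0.04884) was lost without replicate 1, 2 or 4 (-0.20, -0.23 and -0.27, adjusted p = 0.1739, 0.1393 and 0.1091), with its own spread (adjusted p = 0.06475), with genes under a mean of 0.1 FPKM left out (adjusted p = 0.08488) and with a pseudocount of 0.1 (adjusted p = 0.124). With libraries rescaled its difference was 0.28 (adjusted p = 0.1397), and after the length adjustment -0.064 (adjusted p = 0.5454). The gene span of Cacna2d4 is overlapped on the opposite strand by Lrtm2, at 10.8 ± 1.76 FPKM or 16.9 ± 6.25 times its level. Whether exons overlap was not examined, so the part of Lrtm2 in the level of Cacna2d4 is unknown. Against the pan-endothelial median, Cacna2d1 was higher by 0.55 ± 0.24, a call lost with the mean of that list in place of its median (0.15, adjusted p = 0.2159). Cacna2d3 stood at 0.24 ± 0.13 from it and passed above only with its own spread (adjusted p = 0.04075) or without replicate 1 (0.30, adjusted p = 0.04881).

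All 4 calcium channel beta genes were above 1 FPKM, as were 47.7% of all genes tested. Each of the 4 was higher than every pore-forming calcium channel gene in each library. Cacnb3 measured 26.2, 24.7, 28.0 and 21.6 FPKM (25.1 ± 2.69, SD, n = 4). Cacnb4, the gene mutated in the lethargic mouse, measured 17.5, 14.4, 16.5 and 14.2 FPKM (15.6 ± 1.60). No library of one reached the range of the other. Cacnb1, the beta subunit of skeletal muscle that is also made in brain, measured 14.9, 10.1, 10.9 and 9.49 FPKM (11.4 ± 2.45). Cacnb2, the beta subunit of the heart that is also made in brain, measured 6.55, 7.80, 6.44 and 6.89 FPKM (6.92 ± 0.618). The ranges of Cacnb1 and Cacnb4 overlapped across libraries, and Cacnb4 was higher within each.

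Cacnb3 exceeded Cacnb4 by 0.65 ± 0.10 in 4 of 4 libraries, a ratio of 1.61 ± 0.113. Cacnb1 and Cacnb2 were below Cacnb4 by -0.44 ± 0.16 and -1.07 ± 0.23. All 3 differences passed the test, also with each gene's own spread. Of all genes, 14.5% passed above Cacnb4 and 80.7% below. Cacnb3 was 11.8 ± 5.55 times the level of Cacna1e, the pore-forming calcium channel gene with the highest mean. That ratio was 20.1 in replicate 2 and between 8.47 and 9.55 in the others. Against the pan-endothelial median Cacnb3, Cacnb4 and Cacnb1 were higher by 1.95 ± 0.22, 1.30 ± 0.24 and 0.86 ± 0.39, and Cacnb2 passed in neither direction (0.23 ± 0.18).

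The gamma family was led by 2 transmembrane AMPA receptor regulatory proteins. Cacng3 measured 15.5, 19.3, 18.1 and 20.1 FPKM (18.2 ± 2.03, SD, n = 4). Cacng2, which encodes stargazin, measured 5.92, 5.09, 6.26 and 6.53 FPKM (5.95 ± 0.624). The 2 did not overlap: Cacng3 was 3.09 ± 0.499 times Cacng2, a log2 difference of 1.47 ± 0.20, beside 26.8% of all genes above Cacng2 and 65.8% below. Cacng4, another of these regulators, measured 2.93, 1.61, 3.34 and 2.27 FPKM (2.53 ± 0.759).

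Cacng5, a more distant relative that also binds AMPA receptors, measured 3.55, 3.31, 1.56 and 1.56 FPKM (2.49 ± 1.08), with replicates 1 and 2 well above the others. It passed above 1 FPKM (0.75 ± 0.46, adjusted p = 0.01733), but not with its own spread (adjusted p = 0.05491) nor without replicate 1 or 2 (0.61 and 0.63, adjusted p = 0.05956 and 0.06143). Cacng7, Cacng8 and Cacng6 were below 1 FPKM, with means of 0.576 ± 0.271, 0.291 ± 0.197 and 0.178 ± 0.160. The call of Cacng7 (-0.36 ± 0.26, adjusted p = 0.03198) was lost without replicate 2 or 4 (-0.34 and -0.25, adjusted p = 0.09768 and 0.1108), with its own spread (adjusted p = 0.07854) and with a pseudocount of 0.1 (adjusted p = 0.07632), and its difference was 0.12 with libraries rescaled (adjusted p = 0.5756). That of Cacng8 was lost with libraries rescaled (-0.33, adjusted p = 0.103). Cacng1, the gamma subunit of the skeletal muscle channel, was listed at 0 in all libraries, as was Scn4a, while the striated muscle markers had the median given above. Cacng8, which encodes an AMPA receptor regulator of the hippocampus, and its neighbours Cacng7 and Cacng6 lie on chromosome 7 from 3332955 to 3435667. The table holds a second row for each of these 3 names under another gene identifier, listed at 0 in all 4 libraries and absent from GENCODE M21, so how reads were divided between the rows is unknown and the levels of these 3 genes are uncertain. Cacng3 was above the pan-endothelial median by 1.51 ± 0.10 and Cacng2 passed in neither direction (0.04 ± 0.16). The other 5 tested genes were below it, from -0.95 ± 0.35 for Cacng4 to -2.52 ± 0.26 for Cacng6, beside 65.0% of all genes.

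One library stood apart in the long genes. Replicate 2 gave the lowest value of 11 of the 15 pore-forming members above 0, of 7 of the 18 auxiliary members and of 18 of all 33. The median deviation of replicate 2 from the mean of 4 was -0.25 on the log2 scale for pore-forming and -0.09 for auxiliary genes, while that of replicate 3 was 0.18 and 0.09. The longest annotated transcripts had a median of 9560 bases in the pore-forming and 3928 bases in the auxiliary genes. The same held for genes at large: where the mean was 1 FPKM or more, replicate 2 was the lowest in 17.5% of the 5291 genes with transcripts of 2 to 4 kb and in 66.3% of the 674 over 8 kb. Its median deviation was 0.08 in the first set and -0.27 in the second, as the plot against transcript length shows. Transcript length moved with the subunit class and with replicate 2; its part in the difference between pore-forming and auxiliary genes was not tested further than by a length adjustment. After removal of a smooth trend on transcript length over all genes, all 10 pore-forming calcium channel genes were still lower than the pan-endothelial median. Of these, 9 passed the test and Cacna1e did not (-0.23, adjusted p = 0.3071), while 15011 of all 24969 genes passed below.

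**Figure D4:**
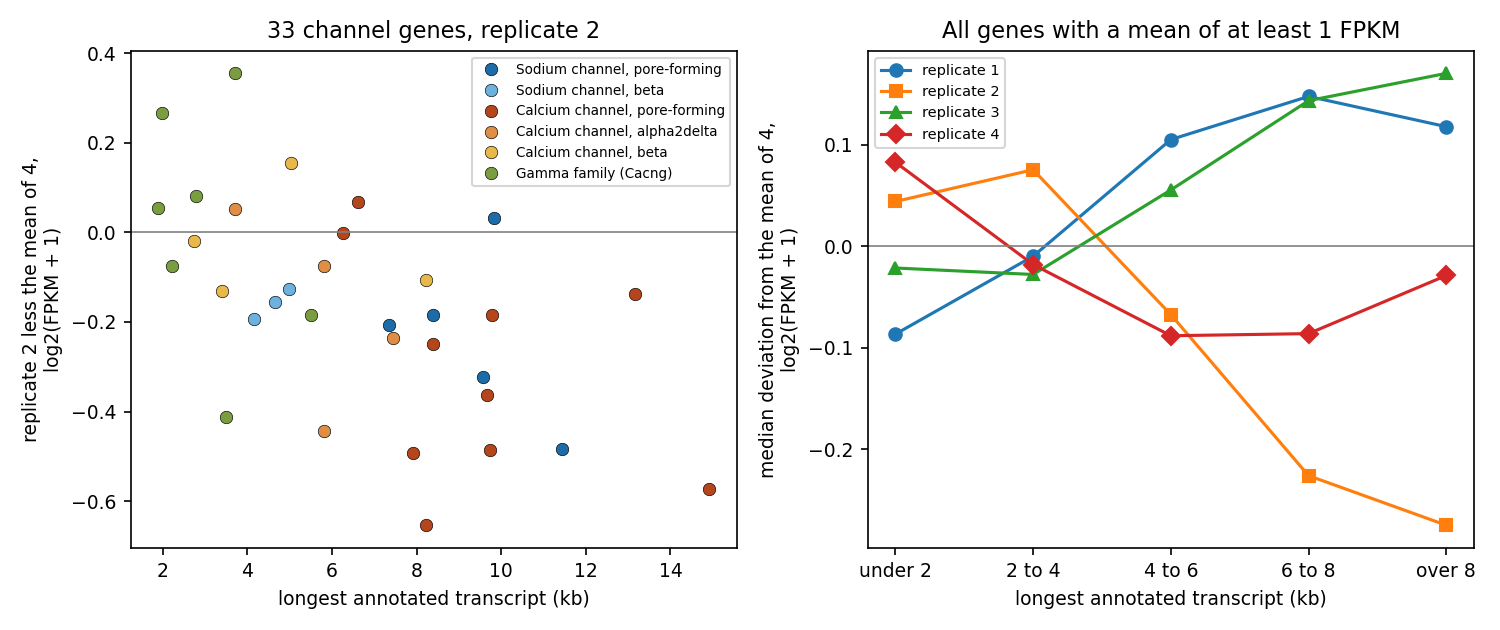
Left, deviation of replicate 2 from the mean of 4 libraries, on the log2(FPKM + 1) scale, against the longest annotated transcript in kb, for the 33 channel genes above 0, coloured by subunit class. Right, median deviation of each replicate for all genes with a mean of 1 FPKM or more in 5 classes of transcript length; replicate 2 goes from 0.04 under 2 kb to -0.27 over 8 kb.

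Level followed transcript length in no single way among the members. Spearman's rho between the longest transcript and the mean FPKM was -0.193 over the 33 members, 0.407 over the 15 pore-forming and 0.212 over the 18 auxiliary genes, and 0.313 over all 24969 genes above 0 with a length. These points come from the same 4 libraries and are given as a description.

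The start regions of the members differed in CG content. RefSeq promoters (GRCm38.p6, 250 bases before to 50 after the start) were found for 29 of the 37 names, and the dinucleotide CG was counted in them, as a mean where a gene has several. At least 10 CG stood in 13 of the 16 members with a mean of 1 FPKM or more, in 5 of the 13 under it, and in 44.4% of 27025 genes. The count of 10 was chosen after the values were seen, and no test was made. The 44.4% covers genes of every level, and the share among all genes above or under 1 FPKM was not counted. Of 41 promoters, those of Scn2a1 included, 35 had their last 50 bases, or 30 of them, in an annotated transcript of the gene. In the higher set Cacng3, Scn1a and Scn2b, at 18.2, 11.2 and 9.996 FPKM, had 9, 5 and 2. In the lower set Cacna1d, Cacna1i, Cacna1c, Cacng7 and Scn10a had 33.5, 23, 22.3, 15 and 11. The promoters of a pair of genes that end where the annotated transcript begins are printed to show a high and a low count, with CG in capitals, 5′ to 3′ in the sense of the gene: Cacna2d1 (8.88 ± 1.19 FPKM, chr5:15934441-15934690, plus strand, 36 CG in the 250 bases) and Scn11a (listed at 0, chr9:119825457-119825706, minus strand, 3 CG).
Cacna2d1: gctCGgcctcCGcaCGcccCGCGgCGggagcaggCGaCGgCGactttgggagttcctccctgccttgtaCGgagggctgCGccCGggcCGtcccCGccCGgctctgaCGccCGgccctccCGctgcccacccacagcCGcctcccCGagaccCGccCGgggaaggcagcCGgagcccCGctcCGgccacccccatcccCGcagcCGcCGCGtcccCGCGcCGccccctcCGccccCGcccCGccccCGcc
Scn11a: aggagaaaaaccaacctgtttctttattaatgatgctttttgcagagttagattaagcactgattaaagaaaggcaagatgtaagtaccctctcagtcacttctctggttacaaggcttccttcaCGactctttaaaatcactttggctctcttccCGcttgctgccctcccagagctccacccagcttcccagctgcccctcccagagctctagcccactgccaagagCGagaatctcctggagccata
The first holds CG throughout and the second only in a few places; neither count says which of the starts was used in these cells.

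A list of 15 sodium channel partners held genes of the axon initial segment and node, channel modulators and the separate sodium leak channel complex. Of these, 13 were above 1 FPKM, none below and 2 in neither direction, beside 47.7% of all genes above and 40.1% below. The highest were Cntn1, an axonal adhesion protein, at 48.9 ± 6.56 FPKM (SD, n = 4), and the channel-binding factors Fgf13 at 47.3 ± 5.60 and Fgf12 at 35.4 ± 3.95. The lowest was Unc79, a subunit of the sodium leak channel complex, at 1.21 ± 0.378. Against the pan-endothelial median, 7 were above, 4 below and 4 in neither direction, beside 27.2% of all genes above and 65.0% below.

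Of 17 calcium channel partners, 8 were above 1 FPKM, 3 below and 6 in neither direction, a share above that is near the 47.7% of all genes. Jph3 and Jph4, junctophilins that hold the plasma membrane to the endoplasmic reticulum, had 33.8 ± 2.80 and 18.9 ± 4.60 FPKM, and Cabp1, a calcium sensor of these channels, 18.5 ± 0.988. The lowest was Ryr1, the release channel of skeletal muscle, at 0.0750 ± 0.0297. Against the pan-endothelial median, 5 were above, 10 below and 2 in neither direction, near the 27.2% and 65.0% of all genes.

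All 9 AMPA receptor genes and partners of the gamma family proteins were above 1 FPKM, as were 47.7% of all genes. Cnih2, an auxiliary subunit of these receptors, led with 115.5 ± 3.24 FPKM, and the receptor subunit genes Gria2 and Gria4 had 34.8 ± 1.45 and 22.7 ± 3.73. Gsg1l, another auxiliary subunit, was lowest at 6.29 ± 0.798. Of these 9, 8 were above the pan-endothelial median and 1 passed in neither direction, beside 27.2% of all genes above.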

How the data were processed

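Poly(A) RNA-seq gave 4 libraries, built with a NEBNext kit from RNA of a Zymo kit, per the labels' protocols. The authors deposited 1 table of FPKM for 46072 genes. Tools named in the submitters' processing notes are StringTie 2.2.1, HISAT2 2.2.1, SAMtools and bcl2fastq 2.20, with build GRCm38; for their roles, the annotation, the strand setting and fragments with several matches, details were not given in the sources read here. An FPKM divides by length and by the library total, so a few very high genes lower all other values of a library, and a loss of long transcripts raises those of shorter ones. The low values held no whole-read steps, so depth is unknown, no counting interval can be given, and a listed 0 may be a failed estimate.

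Each library's column was matched by the library name in the labels, and 0 columns were left out. Levels were tested as log2(FPKM + 1), a pseudocount of 1, with limma 3.58.1 in R 4.3.3 (moderated test, 2-sided, with a trend of variance on mean, Benjamini-Hochberg adjustment over the 25206 genes above 0 in any library, threshold 0.05), against 1 FPKM, within library against the median of 17 pan-endothelial genes, and within library against 1 reference gene per subunit class (Scn8a, Cacna1a, Cacna2d1, Cacnb4 and Cacng2). In the within-library fits, before any alternative setting, limma estimated a common spread for all genes of a level, so their p-values are small and an alternative without that sharing was added. Scn2a was to be the sodium channel reference and Scn8a took its place, since the table names the former Scn2a1. A test against 1 FPKM was run on simulated data of 25206 genes, 50 of them shifted by each size. The genes' own spreads were reassigned at random, and no trend of variance on mean was fitted. There a log2 shift of 1 was found in 74%, of 0.5 in 20%, of -0.5 in 26% and of -1 in 60%. Of the 94 calls, 4 were false. The Benjamini-Hochberg cut depends on the number of calls, and in the data 12034 genes passed above and 10104 below 1 FPKM. Recovery under the fit and cut used for the data was not tested.

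Of the 39 names, 2 are not reported here, and the sodium channel beta class therefore has no reference gene. Positions, transcript lengths and coding sequences came from GENCODE M21 (GRCm38), and promoters from RefSeq (GRCm38.p6). The longest coding transcript of each gene was compared. The members and lists were chosen with earlier results of these data known. Values in every library were given for the reference genes, the 3 highest and the lowest members of each class (those listed at 0 by name) and members that passed neither way against 1 FPKM; other members were given by mean and SD or, where that bore on a call, by library. Of partner lists the 3 highest and the lowest gene were named. Alternatives covered the pseudocount, a filter on low values, scaling, the variance model, the list summary and each library left out; transcript length against 1 FPKM, each gene's own spread, Scn1a as reference and Scn2a1 among the members were added after seeing the data. Figures were drawn with matplotlib 3.10.9.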

Additional observations from a re-analysis of the deposited data

Results flagged for a closer look

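In Scn8a, replicate 2 lay apart from the other libraries, at 5.04 FPKM against 8.18 to 8.81 FPKM; the gap to the nearest library was 0.833 of the range, just over Dixon's 95% critical value. It was the 1 flag among 33 members tested at both ends, and chance alone flags about 1 in 20 groups. Scn8a has the longest transcript of the pore-forming sodium channel genes, 11436 bases, and replicate 2 was low in long transcripts at large; the part of length in the value of Scn8a was not tested.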

How the results depend on the processing

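Read depth is unknown, so levels near 0 cannot be given a limit. Of the 953 differences of single members recomputed under alternatives, 878 kept their direction and their side of the threshold, 52 lost the call, 10 gained one and 13 changed sign, 4 of them passing neither way in either fit. The 10 members below 1 FPKM became 4 with libraries rescaled to a fixed sum and 6 after a length adjustment. In these 2 settings the median difference of all genes rose from 0.27 to 0.99 and 0.88, so the cut lies lower among all genes. With the mean of the pan-endothelial list in place of its median, 6 members were above it instead of 10. Against 1 FPKM, the rescaling turned Cacna1d (0.46), Cacna2d4 (0.28), Cacna1c (0.16) and Cacng7 (0.12) positive, none past the threshold, and the length adjustment turned Cacna1d (0.42), Cacna1c (0.38) and Cacna1i (0.055) positive, the first 2 of which passed above. With the list mean, Scn8a (-0.067), Scn4b (-0.025), Cacna2d3 (-0.15), Cacnb2 (-0.16) and Cacng2 (-0.35) changed sign, and Cacng2 then passed below. Cacng2 also changed sign without replicate 1 (-0.022). A rescaling multiplies every value and the list mean lies above its median; the cause of the changes under the length adjustment was not tested. Without 1 replicate, members above 1 FPKM numbered 16 to 18, below 7 to 10, above the pan-endothelial median 8 to 10, below it 20 in each case, above the reference gene of their class 2 to 3 and below it 17 to 18. No paired analysis was possible because the series has 1 group.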
